A study of Mus musculus with 16 samples.

Results

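The genes described here are 8 matricellular genes of the mouse: Tnc (tenascin C), Postn (periostin), Spp1 (osteopontin), Cthrc1 (collagen triple helix repeat containing 1), Fn1 (fibronectin), Thbs1 (thrombospondin 1), Sparc (osteonectin) and Nov (now named Ccn3). They are 8 of the 15895 genes in the deposited table, and all 8 passed the filter on low values. The list was chosen by gene name with the differences between MI and sham libraries of these same data in view. The members' differences between groups are therefore given as descriptions, without a test.

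The study sorted lymphatic endothelial cells from hearts of CD1 mice after myocardial infarction (MI) or a sham operation and measured their RNA by sequencing. Surgery was done on postnatal day 1 (P1), when the mouse heart can regenerate, or at 8 weeks of age (P56), when it heals by scarring, and hearts were taken 3 days later. The groups sham P1, sham P56, MI P1 and MI P56 have 4 libraries each, and no group carries a transgene or a deleted allele in the labels. Adult MI was a permanent ligation of the left descending coronary artery in males, and sham animals went through the procedure without the infarct. Neonatal ventricles were cut up, pooled in groups of 6 and digested under agitation, whereas adult hearts were perfused with enzyme more briefly. Age therefore cannot be told apart from the way of digestion, the pooling or the animals' sex. Cells were taken as negative for CD45, a leukocyte antigen, and positive for CD31 and podoplanin. Whether libraries of 1 group came from separate animals or pools is not stated in the labels, so p-values reflect only how much the libraries vary, which may be technical.

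Matricellular proteins are secreted into the extracellular matrix, where they bind cell surface receptors, growth factors and structural fibres rather than mainly forming the scaffold. Most are scarce in the resting adult heart and return after an infarct, when fibroblasts and myofibroblasts make much of the tenascin C, periostin and fibronectin, and macrophages make much of the osteopontin. Integrins, CD44, CD47, CD36 and syndecans are among the receptors through which they act on nearby cells, endothelial cells included.

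Values are in the deposited unit, the CPM that the authors scaled per library. A library in which few genes had a read can give coarse values. The 13 libraries with a read on at least 10000 genes were therefore fitted. They were 2 sham P1, 4 sham P56, 4 MI P1 and 3 MI P56. Depth ran from 17103319 to 43837520 reads per library. In the 3 libraries left out of the fit (sham P1 libraries 1 and 2 and MI P56 library 5) a read was found on 7746 to 9451 genes, and the single gene Uqcrc1 took 18.1% to 99.8% of the reads. It also took 47.3% in the fitted sham P1 library 5. In the left-out libraries 3 reads are worth 0.359 to 12.9, against 0.0489 to 0.109 in the fitted libraries. Sham P1 library 1 was the least coarse of those left out, at 0.359. It had 6376296 reads outside Uqcrc1 and mitochondrial ribosomal RNA, against 6709566 in the fitted sham P1 library 5. The positive markers of the sort were present. A read was found in every fitted library for 7 lymphatic endothelial markers, among them Prox1, Lyve1, Flt4, Pdpn and Pecam1. Ptprc, the gene of CD45, had reads in every fitted library too. It was at 0.506 and 0.109 in sham P1 and at 1.26, 3.05, 0.0997 and 2.04 in MI P1. In adults it was at 0.964, 0.362, 1.09 and 1.34 in sham and at 1.10, 3.21 and 5.31 in MI. Fibroblast markers were present as well, with a read on all 12 in every fitted library, and Dcn was at 126 to 1330. In bulk RNA of this kind, fewer cells of a type and less RNA per cell cannot be told apart.

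Promoters are shown to set the letters before the start beside the adult values. The 250 bases before the start are given for the 3 members whose RefSeq start lies within 7 bases of the start in the deposited table, read from RefSeq on GRCm38.p6. All 3 were low in adult sham and high after adult MI, the pattern in view when the genes were listed, and their differences after MI at P1 were -0.76 for Postn, 0.27 for Tnc and 1.59 for Spp1. Capitals mark matches to the motifs searched on both strands. The TATA box was searched as TATAAA, the GC box as GGGCGG, the AP-1 site as TGANTCA, the TEAD site as CATTCC and the SMAD site as CAGACA, whose reverse complement is TGTCTG.
Tnc, chr4:64047016-64047265, minus strand: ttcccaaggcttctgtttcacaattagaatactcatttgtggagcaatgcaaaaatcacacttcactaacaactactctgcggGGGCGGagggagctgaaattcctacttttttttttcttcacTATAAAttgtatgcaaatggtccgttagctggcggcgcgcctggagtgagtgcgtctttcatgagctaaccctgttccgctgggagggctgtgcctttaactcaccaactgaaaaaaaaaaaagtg
Postn, chr3:54360857-54361106, plus strand: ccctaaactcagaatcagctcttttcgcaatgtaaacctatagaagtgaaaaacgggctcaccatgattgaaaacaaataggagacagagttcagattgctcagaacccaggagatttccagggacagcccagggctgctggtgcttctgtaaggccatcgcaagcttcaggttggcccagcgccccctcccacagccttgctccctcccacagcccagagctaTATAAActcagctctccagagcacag
Spp1, chr5:104434861-104435110, plus strand: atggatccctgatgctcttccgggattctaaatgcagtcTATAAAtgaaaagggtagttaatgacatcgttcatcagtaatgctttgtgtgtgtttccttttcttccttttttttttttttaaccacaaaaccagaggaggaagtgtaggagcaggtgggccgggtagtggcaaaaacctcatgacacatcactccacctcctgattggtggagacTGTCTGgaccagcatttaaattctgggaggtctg

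TATAAA was found in all 3 sequences, with its first base 126 bases before the start in Tnc, 26 in Postn and 211 in Spp1, and 12.4% of the 32851 promoters of the table hold it. GGGCGG was found in Tnc, and 32.7% of promoters hold it. TGTCTG was found 34 bases before the start in Spp1, and 17.1% of promoters hold it on either strand. TGANTCA and CATTCC were not among the letters of these windows, and 6.75% and 12.6% of promoters hold them. A match is a description of the letters only. The table has 4 of the 8 members, and the fourth is Sparc, whose RefSeq start lies 3103 bases from the start in the deposited table.

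After adult infarction 7 of the 8 genes were higher, where 50.7% of all genes had an estimate above 0. For these 7 the gap ran from 1.52 on the log2(value + 1) scale for Sparc to 4.62 for Tnc. With 0.25 added in place of 1, it was 4.73 for Tnc, 5.84 for Cthrc1 and 5.99 for Spp1. Every fitted MI P56 library lay above every sham P56 library for these 7, where 8% of the 13033 genes tested have groups that do not overlap in this direction. None lay wholly below, where 5.79% do. Since these libraries were in view when the genes were listed, nothing is read from those counts. At P1 no member had its MI libraries wholly above sham (8.89% of genes do), and only Nov had them wholly below (7.27% do). In the plot of each library the fitted sham P56 values lie below those of all other groups, except for Sparc and Nov.

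**Figure D1:**
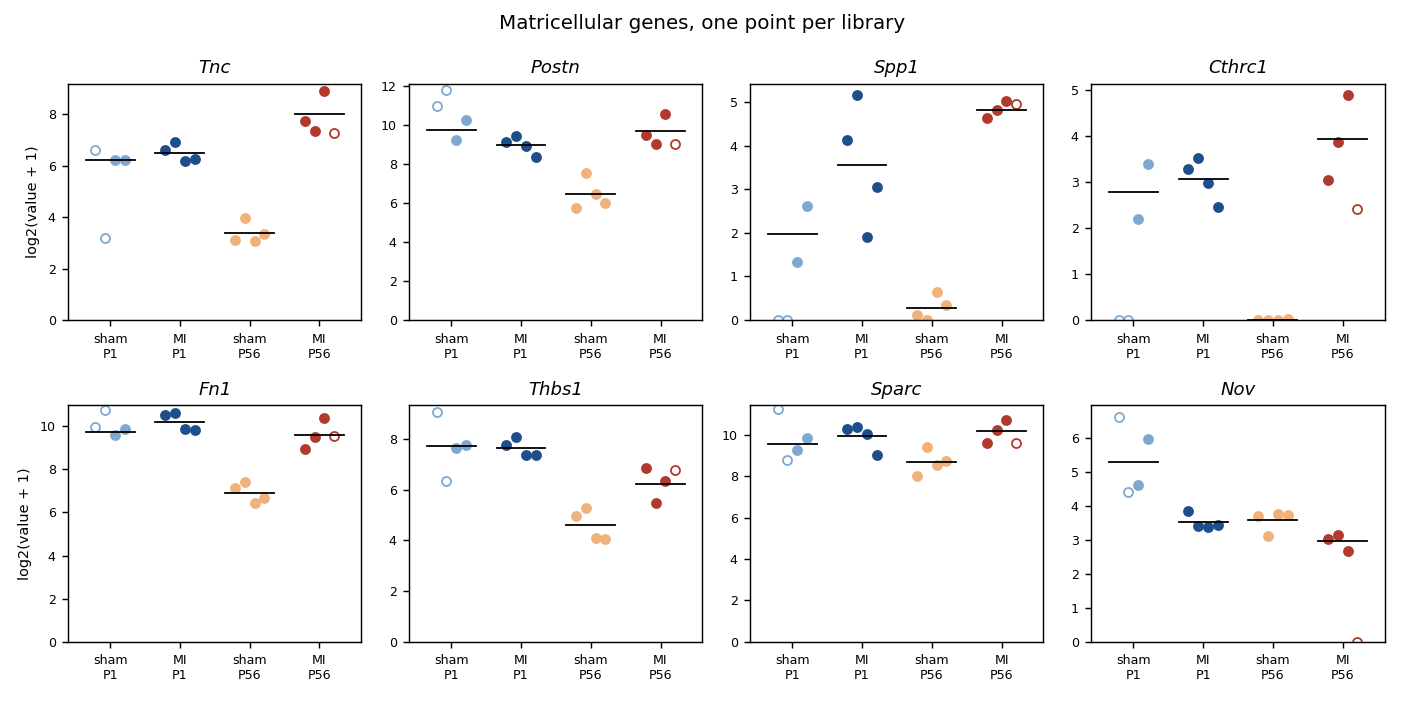
Each point is 1 library of sorted cardiac lymphatic endothelial cells, with log2(deposited value + 1) on the y axis and the 4 groups on the x axis. Filled points are the 13 fitted libraries, open points the 3 left out of the fit, and lines the mean over the fitted libraries. For every gene but Sparc and Nov the fitted sham P56 libraries sit below all fitted libraries of the other groups.

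Tenascin C is a large glycoprotein of developing and wounded tissue that loosens cell adhesion. Tnc (chromosome 4, 63959785 to 64047015, minus strand) was at 7.60, 14.6, 7.40 and 9.20 in sham P56 libraries 1, 2, 3 and 5 and at 213, 162 and 474 in MI P56 libraries 1, 2 and 3. It was at 73.0 and 74.4 in sham P1 libraries 3 and 5 and at 95.5, 121, 72.1 and 75.1 in the MI P1 libraries. Adult MI was far above adult sham in every library, and both neonatal groups lay between them and overlapped each other. In the libraries left out of the fit Tnc was at 97.3 and 8.08 in sham P1 and at 151 in MI P56. The difference after MI was 4.62 ± 0.31 (SE) on the log2(value + 1) scale at P56 and 0.27 ± 0.35 at P1. Without MI P56 library 3 the adult difference was 4.17.

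Periostin supports collagen fibre assembly and is a known product of activated fibroblasts. Postn (chromosome 3, 54361109 to 54391037, plus strand) was at 53.0, 188, 88.0 and 64.4 in sham P56 and at 731, 531 and 1522 in the fitted MI P56 libraries. In neonates it was at 597 and 1222 in sham and at 561, 711, 491 and 327 in MI. Only the adult sham group stood apart, since the other 3 groups overlapped their neighbours in order of mean. The left-out libraries read 2013 and 3659 in sham P1, the highest Postn values of the series, and 518 in MI P56. The log2 difference after MI was 3.26 ± 0.40 at P56 and -0.76 ± 0.46 at P1.

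Osteopontin is a phosphorylated, secreted ligand of integrins and CD44. Spp1 (chromosome 5, 104435118 to 104441050, plus strand) was at 0.0896, 0, 0.561 and 0.272 in sham P56, which is 51 reads over 4 libraries, and at 23.9, 27.3 and 31.8 in MI P56. In neonates it was at 1.52 and 5.14 in sham and at 16.5, 34.99, 2.77 and 7.37 in MI. The adult MI libraries were close to each other, whereas the MI P1 libraries spread widely and reached down into the sham P1 range. In the left-out libraries Spp1 had 0 reads in sham P1 and a value of 30.2 in MI P56, which is 7 reads. The summed adult reads give a ratio of MI to sham of 108 with an exact 95% interval of 82.0 to 145, which covers counting error only. On the log2(value + 1) scale the difference was 4.55 ± 0.54 at P56 and 1.59 ± 0.61 at P1. The adult difference depends on the pseudocount at such low sham values, and was 5.99 with a pseudocount of 0.25 and 2.90 with one of 4.

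Cthrc1 encodes a secreted protein made by fibroblasts in injured tissue. Cthrc1 (chromosome 15, 39076932 to 39087121, plus strand) had 0 reads in 3 sham P56 libraries and 1 read, a value of 0.0170, in library 5. It was at 7.33, 13.7 and 28.8 in MI P56, at 3.56 and 9.53 in sham P1 and at 8.71, 10.5, 6.88 and 4.53 in MI P1. Adult sham was thus the single group close to 0, and the other 3 groups overlapped their neighbours in order of mean. The left-out libraries had 0 reads in sham P1, where 3 reads would be 0.359 or 12.1, and 1 read in MI P56. Summed reads were 2780 in adult MI against 1 in adult sham, a ratio of 3454 with an exact 95% counting interval of 619 to 136483. The log2(value + 1) difference was 3.94 ± 0.41 at P56 and 0.27 ± 0.47 at P1. The adult value was 5.84 with a pseudocount of 0.25 and 2.23 with one of 4, and the neonatal one was -0.33 without sham P1 library 3 and 0.87 without sham P1 library 5.

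Fibronectin is the fibril-forming glycoprotein on which cells and other matrix proteins first assemble in a wound. Fn1 (chromosome 1, 71585520 to 71653200, minus strand) was at 138, 168, 86.0 and 101 in sham P56 and at 482, 710 and 1346 in MI P56. In neonates it was at 758 and 919 in sham and at 1475, 1569, 935 and 909 in MI. MI P56 libraries 1 and 2 lay between adult sham and the fitted neonatal libraries, library 3 lay within the neonatal range, and MI P1 had the highest mean. Left-out libraries read 987 and 1716 in sham P1 and 751 in MI P56. The log2 difference after MI was 2.69 ± 0.32 at P56 and 0.50 ± 0.36 at P1.

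Thrombospondin 1 activates latent TGF-beta and inhibits angiogenesis through CD36 and CD47. Thbs1 (chromosome 2, 118111876 to 118127133, plus strand) was at 30.1, 37.5, 15.8 and 15.6 in sham P56 and at 114, 43.1 and 79.9 in MI P56. It was at 200.0 and 218 in sham P1 and at 213, 271, 163 and 162 in MI P1. Both neonatal groups lay wholly above adult MI, and MI P56 library 2 was only just above the highest adult sham library. Left-out libraries read 538 and 80.8 in sham P1 and 108 in MI P56. The log2 difference after MI was 1.63 ± 0.32 at P56 and -0.08 ± 0.37 at P1.

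Osteonectin binds collagen and calcium and takes part in collagen fibre maturation. Sparc (chromosome 11, 55394500 to 55423183, minus strand) was at 256, 692, 371 and 433 in sham P56 and at 782, 1210 and 1722 in MI P56. In neonates it was at 625 and 919 in sham and at 1250, 1322, 1060 and 530 in MI. Adult MI lay wholly above adult sham, but every pair of neighbouring groups in order of mean overlapped, sham P56 and sham P1 included. Left-out libraries read 2470 and 448 in sham P1 and 794 in MI P56. The log2 difference after MI was 1.52 ± 0.36 at P56 and 0.37 ± 0.40 at P1.

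Nov encodes a CCN family protein that binds integrins and is often opposed in action to its relative Ctgf. Nov (chromosome 15, 54745702 to 54754039, plus strand) was at 11.8, 7.68, 12.5 and 12.3 in sham P56 and at 7.17, 7.87 and 5.33 in MI P56. In neonates it was at 23.4 and 61.4 in sham and at 13.5, 9.52, 9.42 and 9.69 in MI. Nov was the one member with lower mean values after MI at both ages, and its highest group was sham P1. The left-out libraries read 97.1 and 20.2 in sham P1, and had 0 reads in MI P56, where 3 reads would be 12.9. The log2 difference after MI was -0.63 ± 0.30 at P56 and -1.77 ± 0.34 at P1. The neonatal difference was -2.45 without sham P1 library 3 and -1.09 without sham P1 library 5.

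The median difference after MI over the 8 genes was 2.97 at P56, where the median of all 13033 genes was 0.01, and 0.27 at P1, where it was 0.02. The difference between the adult and the neonatal response was above 0 for all 8 genes, and for 49.6% of all genes. These libraries were in view when the members were listed, so nothing is read from that count. The difference was 4.35 ± 0.47 for Tnc, 4.02 ± 0.61 for Postn, 3.67 ± 0.63 for Cthrc1 and 2.96 ± 0.81 for Spp1. This order depends on the pseudocount. With one of 0.25 the values were 4.46 for Tnc, 4.04 for Postn, 5.53 for Cthrc1 and 4.19 for Spp1. With one of 4 they were 4.00, 3.97, 2.05 and 1.75 in the same order of genes. In the main fit the difference was smaller for Fn1 (2.19 ± 0.48), Thbs1 (1.71 ± 0.49), Nov (1.15 ± 0.46) and Sparc (1.14 ± 0.54). For Nov both responses were negative and the adult one was the smaller, and the difference was 1.82 without sham P1 library 3 and 0.47 without sham P1 library 5.
With all 16 libraries the adult difference after MI was 4.43 for Tnc, 3.09 for Postn, 4.59 for Spp1, 3.55 for Cthrc1, 2.68 for Fn1, 1.76 for Thbs1, 1.37 for Sparc and -1.36 for Nov. The neonatal one was 0.93 for Tnc, -1.60 for Postn, 2.58 for Spp1, 1.66 for Cthrc1, 0.18 for Fn1, -0.08 for Thbs1, 0.14 for Sparc and -1.89 for Nov. No member changed its sign between the fits at either age. The difference between the responses with 16 libraries was 3.50 for Tnc, 4.68 for Postn, 1.89 for Cthrc1 and 2.00 for Spp1, and it was 0.52 for Nov. In that fit the median of all genes was itself shifted. The shift was -0.17 for MI at P56, 0.39 for MI at P1 and -0.50 for the difference between the responses.

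**Figure D2:**
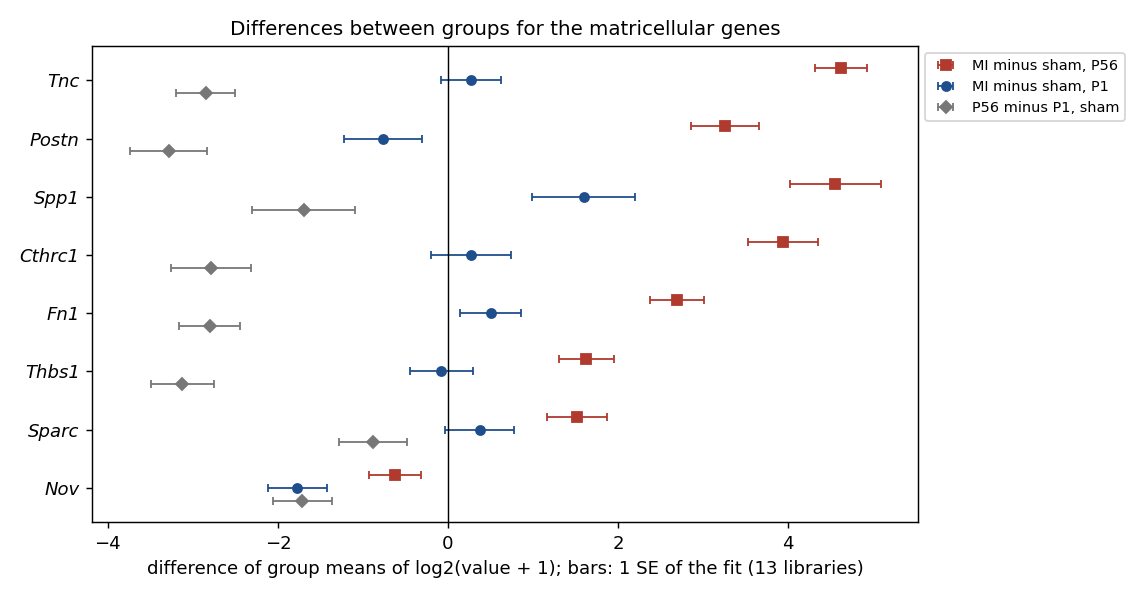
Points are differences between group means of log2(value + 1) for the 8 genes from the fit of 13 libraries, and bars are 1 SE of the fit. Adult MI minus adult sham lies right of 0 for all genes but Nov, P56 minus P1 in sham lies left of 0 for all 8, and MI minus sham at P1 lies closer to 0 than at P56 for all but Nov.

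Between the ages in sham, all 8 genes had a lower estimate at P56, where 50.1% of all genes had a higher one. The sham libraries were in view when the genes were listed, so these differences too are a description, given without a p. By limma with Benjamini-Hochberg adjustment at 0.05, 6 of the 8 would be called lower and 0 higher, where 7.28% of all genes were called lower, and nothing is read from that count. On the log2 scale the difference was -3.28 ± 0.46 for Postn, -3.12 ± 0.37 for Thbs1, -2.85 ± 0.35 for Tnc and -2.80 ± 0.36 for Fn1. With all 16 libraries these were -4.12, -3.12, -2.19 and -3.12, and the median of all genes was itself shifted, to 0.36.

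Cthrc1 differed by -2.79 ± 0.47, and by -1.39 with all 16 libraries, in which the 2 additional sham P1 libraries had 0 reads. Its summed reads of 432 in the fitted sham P1 libraries against 1 in sham P56 give a ratio of 1137, with an exact 95% counting interval of 203 to 44992. Nov differed by -1.71 ± 0.34, and by -1.82 with 16 libraries. For Spp1 the difference was -1.70 ± 0.61, and -0.71 with 16 libraries. Its size depends on the scale at such low values, and was -2.83 with a pseudocount of 0.25 and -0.75 with one of 4. Without sham P1 library 5 the difference was -1.05 for Spp1 and -1.03 for Nov. Sparc differed least, by -0.88 ± 0.40, and by -1.12 with 16 libraries.

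Among the tested genes as a whole the median age difference in sham was 0.00, and it was -2.79 over the 8 members. The fitted sham P56 libraries lay wholly below sham P1 for 7 members, where 16.7% of all genes do so, and for 4 members with all 16 libraries. After MI the median difference between the ages was 0.50 over the members and 0.01 over all genes. Tnc was 1.502 ± 0.31 higher at P56 than at P1 on the log2 scale, with groups that did not overlap, where 9.44% of genes lie wholly higher. Thbs1 (-1.42 ± 0.32) and Nov (-0.57 ± 0.30) lay wholly lower at P56 after MI, where 11.2% of genes do. The adult-to-neonatal differences after MI were 1.26 ± 0.54 for Spp1, 0.88 ± 0.41 for Cthrc1, 0.74 ± 0.40 for Postn, 0.26 ± 0.36 for Sparc and -0.62 ± 0.32 for Fn1, and in these the libraries of the ages overlapped.

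Compared per kilobase of exon, Sparc was the most abundant member in every group, at 204 ± 54.9 per kb (SD, n = 2) in neonatal sham, 275 ± 94.5 (n = 4) in neonatal MI, 116 ± 48.7 (n = 4) in adult sham and 327 ± 124 (n = 3) in adult MI. Postn was next in both sham P1 (104 per kb) and MI P56 (107), whereas Fn1 was next in MI P1 (105). In sham P56 Postn and Fn1 were at 11.3 and 10.5 per kb. Tnc went from 1.25 per kb in sham P56 to 36.4 in MI P56, and thereby passed Thbs1, which went from 4.08 to 13.02. In MI P56 Spp1 was at 16.8 per kb, Cthrc1 at 10.4 and Nov at 2.37. Together the 8 genes took 0.296% ± 0.0612 (SD, n = 4) of the reads outside Uqcrc1 and mitochondrial ribosomal RNA in adult sham and 1.58% ± 0.783 (n = 3) after adult MI. In neonates they took 1.21% ± 0.279 (n = 2) in sham and 1.39% ± 0.430 (n = 4) in MI.

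Of 12 fibroblast markers limma called 4 higher after adult MI (Col1a1, Col1a2, Col3a1 and Mfap5) and 0 lower, where 2.36% and 1.07% of all genes were called, and the fit of 16 libraries called Col1a1 and Col1a2. The other 8 were not called, with log2 differences from -1.30 for Gsn and -0.11 for Dcn to 0.82 for Lum. The summed value of the 12 ran from 852 to 3991 in sham P56 and from 3122 to 6724 in MI P56, so the groups overlapped. Of 8 activated fibroblast markers 2 are members (Postn and Cthrc1), and of the other 6 limma called Acta2, Col8a1 and Ddah1 higher after adult MI, the fit of 16 libraries none. Acta2 is also on the list of pericyte and smooth muscle markers. Fap (0.66), Meox1 (0.76) and Comp (-0.58) were not called. The 6 summed to between 86.8 and 468 in sham P56 and between 562 and 1294 in MI P56, and most of that sum was Col8a1. Without Col8a1, a sum formed after the values were seen, they ran from 34.0 to 51.4 and from 89.6 to 153. In neonates the 12 summed to between 2670 and 5562 in sham and between 1566 and 4876 in MI, and the 6 to between 64.0 and 94.2 and between 48.4 and 145. Of the 12, 1 had an estimate above 0 after MI at P1, with a median of -0.99 where that of all genes was 0.02. Limma called 0 of them there, and 3 had an unadjusted p under 0.05. The difference between the responses was above 0 for 11 of the 12 (median 1.66, all genes -0.01). Limma called Mfap5 higher in it, where 0.322% of all genes were, and the fit of 16 libraries called 0. Between the ages in sham, limma called 3 of the 12 lower at P56 (Col1a1, Col1a2 and Col3a1) and 2 higher (Gsn and Pi16). Of all genes 7.28% were called lower and 5.89% higher there, and the fit of 16 libraries called 2 of the 12. No marker of either list was at 0 in every library of a group. Macrophage and monocyte markers, of which 10 were in the table, summed to between 74.6 and 131 in sham P56 and between 70.4 and 147 in MI P56, and 3 of the 8 tested were called higher (Cd68, Itgam and Ccr2) and 1 lower (Mrc1). Mrc1 made up most of the sum in sham P56, at a mean of 90.2 against 46.2 in MI P56. Which cells gave the Mrc1 reads was not tested. Without Mrc1, again a sum formed after the values were seen, the other 9 summed to values from 7.58 to 10.5 in sham P56 and from 20.3 to 98.0 in MI P56, without overlap. In neonates these 9 summed to values from 17.8 to 19.0 in sham and from 11.2 to 32.2 in MI. With Mrc1 the neonatal sums were between 69.2 and 85.5 in sham and between 49.1 and 81.0 in MI. The part of fibroblast and macrophage markers in the members' differences was not tested. All marker lists were chosen with earlier results of these data known, so their counts are descriptions.

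Members were also divided by a fibroblast gene of the same library, a scale chosen after the values were seen. Dcn encodes decorin, a small proteoglycan of resting fibroblasts, and Col1a1 encodes a chain of collagen I. Relative to Dcn, Tnc ran from 0.00977 to 0.0274 in sham P56 and from 0.199 to 0.779 in MI P56. On the same scale Postn went from between 0.110 and 0.191 to between 0.654 and 2.50, without overlap. Fn1 went from between 0.114 and 0.496 to between 0.875 and 2.21, and Sparc from between 0.490 and 0.924 to between 1.49 and 2.83, also without overlap. Spp1 (0 to 7.4e-04 against 0.0336 to 0.0573) and Cthrc1 (0 to 2.9e-05 against 0.0169 to 0.0473) were wholly higher in MI P56 too. Thbs1 overlapped, at 0.0209 to 0.109 in sham P56 and 0.0530 to 0.274 in MI P56, as did Nov, at 0.00578 to 0.0427 and 0.00874 to 0.0172.
Relative to Col1a1, Postn ran from 0.575 to 0.913 in sham P56 and from 0.354 to 0.954 in MI P56, so the groups overlapped. Tnc overlapped too, at 0.0505 to 0.131 against 0.108 to 0.278. Sparc was lower relative to Col1a1 in every MI P56 library, at 0.806 to 1.02 against 2.53 to 4.41 in sham P56. Nov was also wholly lower, at 0.00260 to 0.00935 against 0.0284 to 0.204. Thbs1 overlapped at 0.108 to 0.519 in sham P56 and 0.0287 to 0.149 in MI P56, and Fn1 at 0.587 to 2.37 and 0.473 to 0.657. Spp1 and Cthrc1 stayed wholly higher in MI P56 relative to Col1a1, Spp1 at 0 to 0.00383 in sham against 0.0155 to 0.0312 and Cthrc1 at 0 to 1.5e-04 against 0.00912 to 0.0141.

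**Figure D3:**
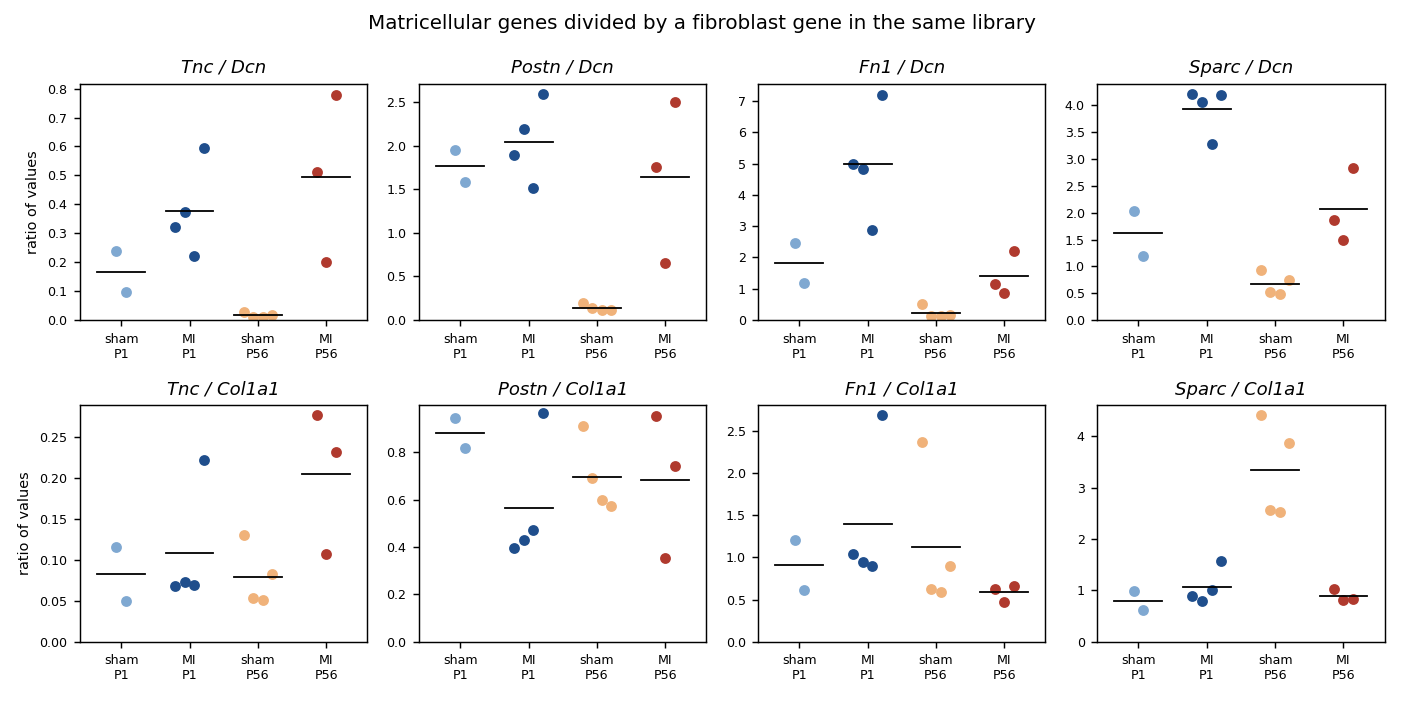
Each point is the deposited value of a matricellular gene divided by that of Dcn (top row) or Col1a1 (bottom row) in the same fitted library, and lines are group means. Over Dcn the MI P56 libraries lie above all sham P56 libraries for Tnc, Postn, Fn1 and Sparc, and over Col1a1 the sham P56 and MI P56 libraries of Tnc, Postn and Fn1 overlap.

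Genes with profiles most like each member over the 13 fitted libraries were ranked by the root mean square difference between centred log2(value + 1) profiles among 6078 genes with a mean of at least 5. Tnc was closest to Lox, a collagen cross-linking enzyme (0.39), and to Cthrc1 (0.49). Cthrc1 was closest to Tnc (0.49), Lox (0.52) and Col12a1 (0.53). Spp1 was closest to Lox (0.68), and its difference from Cthrc1 was 0.83, so Tnc, Spp1 and Cthrc1 share Lox among their nearest genes. Postn was closest to the collagen genes Col1a1 (0.50) and Col3a1 (0.55) and to Anln, a cytokinesis gene (0.54).
The nearest genes of Fn1 were Iqgap3 (0.38), Kif15 (0.43) and Tpx2 (0.45), and those of Thbs1 were Nusap1 (0.37), Myc (0.38) and Mki67 (0.39), of which Kif15, Tpx2, Nusap1 and Mki67 are genes of mitosis and proliferation. Sparc was closest to Lgals1 (0.23), Serpinh1, a collagen chaperone (0.25), and Lrrc59 (0.30). Nov was closest to Sema3c (0.50), Eif4e2 (0.55) and Usp1 (0.56). Tnc, Cthrc1 and Spp1 thus had nearest genes in common, whereas none of the nearest genes of Postn, Fn1, Thbs1, Sparc or Nov was a member. These libraries were in view when the members were listed, so nothing is read from that grouping.

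Other matricellular genes did not move as a block. This list was chosen with earlier results of these data known. Its counts and p-values are therefore descriptions, and no excess over all genes is read from them. Of 15 tested, limma called 4 higher after adult MI (Cyr61, Ctgf, Wisp1 and Fstl1) and 0 lower, where 2.36% and 1.07% of all genes were called, and their median difference was 0.09. The fit of all 16 libraries called 0 of them. Wisp1, a CCN family member, was at 1.10 ± 0.844 (SD, n = 4) in adult sham and 18.2 ± 17.2 (n = 3) after adult MI, a difference of 2.91 ± 0.50 (limma adjusted p = 0.0023). Ctgf, another CCN gene, rose by 1.98 ± 0.37 (limma adjusted p = 0.00415), and lost its call without MI P56 library 3 (adjusted p = 0.0543). Fstl1, a secreted glycoprotein with a SPARC-like domain, rose from 139 ± 48.6 (n = 4) to 527 ± 156 (n = 3), by 1.95 ± 0.30 (limma adjusted p = 9.1e-04), and kept its call without any 1 library, as did Wisp1. The thrombospondin genes Thbs2 (0.09), Thbs3 (0.74) and Thbs4 (0.78), relatives of Thbs1, had these log2 differences and were not called.

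At P1 none of the 15 was called after MI, as none of the 13033 genes was by limma, where 485 had an unadjusted p under 0.05, edgeR called 0 and DESeq2 called 7. The difference between the responses was called for Fstl1 alone of the 15 (2.19 ± 0.45, limma adjusted p = 0.0373), where 0.322% of all genes were called higher and 0.161% lower. That call was kept without MI P1 library 2, sham P56 library 1, 2 or 3, or MI P56 library 2. It was lost without any 1 of the other 8 libraries, with adjusted p up to 0.411, and with all 16 libraries (adjusted p = 0.509). Between the ages in sham, Cyr61 (-2.49 ± 0.37, limma adjusted p = 1.7e-04) and Fstl1 (-1.62 ± 0.34, limma adjusted p = 0.00281) were lower at P56, where 7.28% of all genes were called lower and 5.89% higher. Cyr61 kept its call with 16 libraries (adjusted p = 0.00283) and without any 1 library, and Fstl1 lost it without sham P1 library 5 (adjusted p = 0.111). Spock2 and Tnxb were higher at P56, by 1.78 ± 0.57 (limma adjusted p = 0.0457) and 1.11 ± 0.35 (limma adjusted p = 0.0405), and both lost their calls without sham P1 library 3 (adjusted p = 0.346 and 0.328), sham P1 library 5 or sham P56 library 3. Spock2 also lost it without MI P1 library 1 or 5, sham P56 library 1 or MI P56 library 3, and Tnxb without MI P1 library 2 or 3 or sham P56 library 5. The count of 4 was 2 without sham P1 library 3 or sham P56 library 3, and 1 without sham P1 library 5.

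Receptors for these ligands were nearly all measured, with 22 in the table and 20 tested. They too were listed with earlier results of these data known. No excess over all genes is therefore read from their counts and p-values. After adult MI limma called Cd44, Itga5 and Sdc4 higher and Cd36 lower, 4 of 20 where 3.42% of all genes were called, and the fit of 16 libraries called 0. Cd44, the hyaluronan receptor that also binds osteopontin, was at 3.25 ± 2.09 (SD, n = 4) in adult sham and 24.3 ± 3.40 (n = 3) after adult MI, and at 11.8 ± 4.18 (n = 2) and 11.7 ± 6.23 (n = 4) in neonatal sham and MI. Its adult difference was 2.702 ± 0.40 (limma adjusted p = 8.0e-04), and the call held without any 1 library. With all 16 libraries it was 2.49 (adjusted p = 0.0526). The difference between the responses of Cd44 was 2.81 ± 0.61 (limma adjusted p = 0.047). That call was kept without sham P56 library 2, 3 or 5 and lost without any 1 of the other 10 libraries, with adjusted p up to 0.411, and with all 16 libraries (adjusted p = 0.509).

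Itga5, the alpha chain of the fibronectin receptor, rose in adults from 24.7 ± 4.05 (n = 4) to 67.1 ± 8.81 (n = 3), by 1.41 ± 0.26 (limma adjusted p = 0.00372), and its partner Itgb1 was at 143 and 153. The call of Itga5 held without any 1 library. Sdc4, a syndecan that acts with this integrin at adhesions, went from 4.36 to 15.9, by 1.81 ± 0.39 (limma adjusted p = 0.0128), and was not called without MI P56 library 1 (adjusted p = 0.0721) or 3 (adjusted p = 0.0682). Without either of these libraries 2 of the 20 receptors were called. Cd36, a thrombospondin receptor and fatty acid carrier of capillaries, was at 195 ± 78.8 in sham P56 and 80.0 ± 57.5 in MI P56, a difference of -1.41 ± 0.37 (limma adjusted p = 0.0406). That call was kept without MI P1 library 1 or 5, sham P56 library 1 or 3, or MI P56 library 2, and lost without any 1 of the other 8 libraries, with adjusted p up to 0.240. Summed blood endothelial markers, a list that holds Cd36, ran from 770 to 1191 in sham P56 and from 321 to 572 in MI P56, and from 332 to 383 and from 427 to 602 in sham and MI P1. Their part in the Cd36 difference was not tested.

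At P1 limma called 0 of the 20 receptors after MI (1 had an unadjusted p under 0.05), and edgeR and DESeq2 called 0. Between the ages in sham limma called 4 receptors higher at P56 and 4 lower, where 5.89% and 7.28% of all genes were called, and the fit of 16 libraries called 0. Without sham P1 library 3 or library 5 the count was 2. Cd36 was higher at P56 by 2.57 ± 0.42 (limma adjusted p = 4.0e-04) and kept its call without any 1 library. Sdc1 was higher by 1.65 ± 0.34 (limma adjusted p = 0.00293), and was not called without sham P1 library 3 (adjusted p = 0.0575). Itga9, an alpha chain of a tenascin C and osteopontin receptor that lymphatic valves need, was at 75.5 ± 12.5 (n = 2) in sham P1 and 156 ± 14.4 (n = 4) in sham P56 (1.04 ± 0.22, limma adjusted p = 0.00274). Leaving out sham P1 library 5 ended that call (adjusted p = 0.0865).

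The receptors lower at P56 in sham were Itgav, Itga5, Itga8 and Cd44. Cd44 differed by -1.69 ± 0.46 (limma adjusted p = 0.0181) and Itga5 by -0.97 ± 0.29 (limma adjusted p = 0.0346). Both lost their calls without sham P1 library 3 (adjusted p = 0.0523 and 0.0639) and without library 5 (adjusted p = 0.254 and 0.374). Itga8 differed by -1.65 ± 0.51 (limma adjusted p = 0.0396), and kept its call without MI P1 library 5, sham P56 library 2 or any MI P56 library, but lost it without any 1 of the other 8, with adjusted p up to 0.301. Cd44 and Itga5 thus followed the order of most members, lowest in sham P56 and highest in MI P56 by mean.

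Receptor chains that bind the RGD motif of several members had reads in every fitted library. Itgav was at 95.3, 105, 52.3 and 79.4 on average in neonatal sham, neonatal MI, adult sham and adult MI, and Itgb1 at 165, 184, 143 and 153 in the same order. Of the beta chains that pair with Itgav, Itgb3 was at 16.01, 19.2, 31.3 and 34.1 and Itgb5 was at 5.50, 6.63, 6.57 and 12.9. Cd47, the thrombospondin receptor, was at 186, 167, 321 and 221, and was called in neither comparison of MI with sham nor between the ages in sham.

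**Figure D4:**
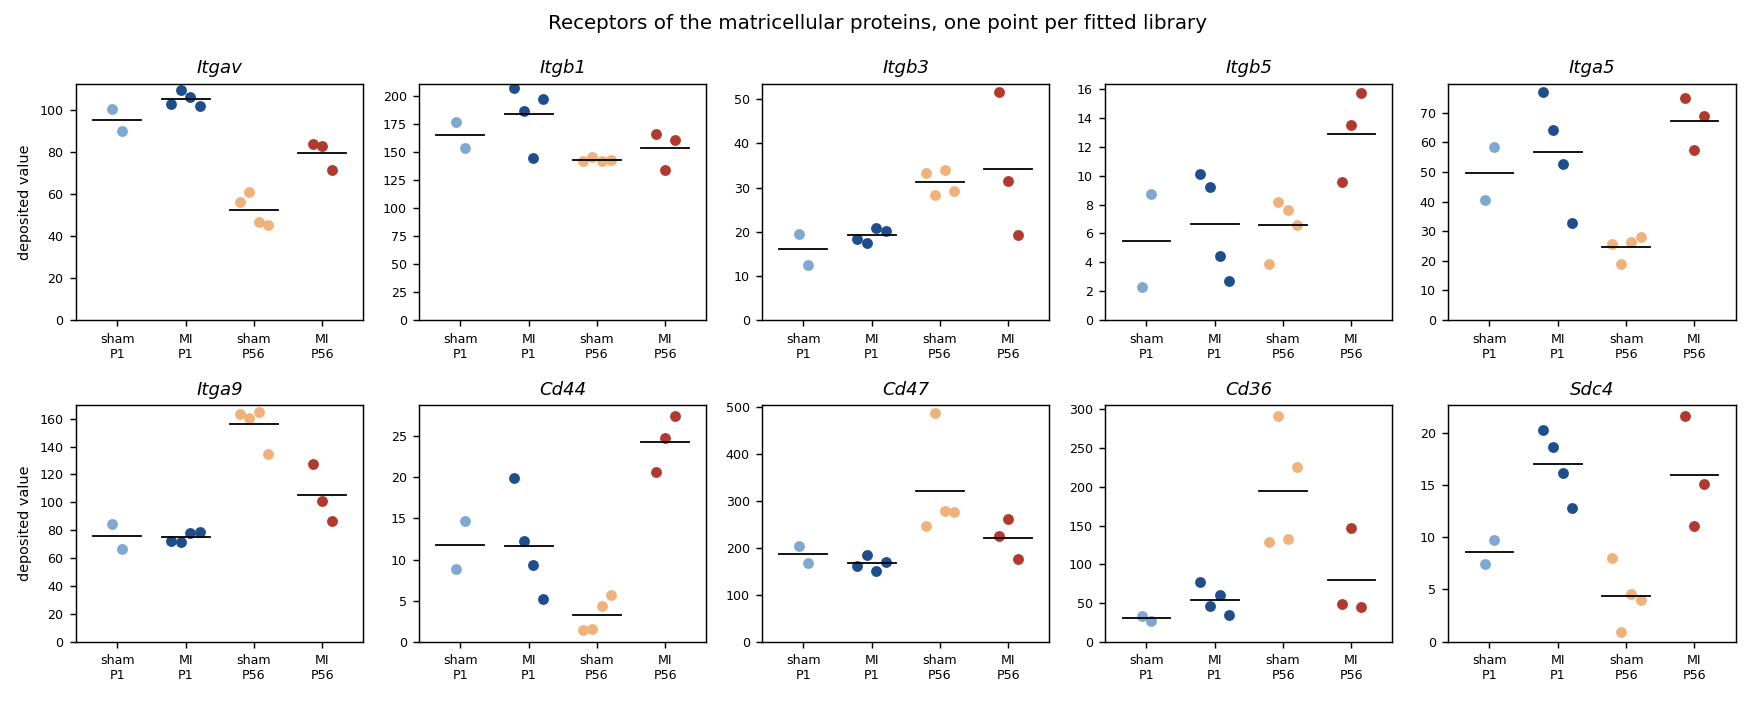
Each point is the deposited value of a receptor gene in 1 fitted library, by group on the x axis, and lines are group means. Cd44 and Itga5 in MI P56 lie above all sham P56 libraries, and the sham P56 libraries of Itga9 lie above all others.

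Upstream signals and factors known to drive these genes, such as TGF-beta, SMADs, YAP and TEAD, RUNX factors and AP-1, were measured. Of 28 genes 27 were tested. The list was again chosen with earlier results of these data known, so no excess over all genes is read from its counts and p-values. After adult MI limma called 5 higher (Tead1, Runx1, Runx2, Fosl2 and Il6) and 0 lower, where 2.36% and 1.07% of all genes were called, and the fit of 16 libraries called 1. Runx1, a transcription factor of activated fibroblasts and other injured cells, went from 2.73 ± 1.34 (SD, n = 4) in adult sham to 27.1 ± 17.3 (n = 3) in MI P56, by 2.81 ± 0.36 (limma adjusted p = 1.8e-04, and 0.0468 with 16 libraries). Runx2, which activates Spp1 in bone, went from 2.80 ± 1.19 to 20.0 ± 4.86, by 2.50 ± 0.39 (limma adjusted p = 0.00115). Both kept their calls without any 1 library. Fosl2, an AP-1 subunit, rose by 0.97 ± 0.26 (limma adjusted p = 0.0447), and kept its call without either sham P1 library, MI P1 library 3 or sham P56 library 1, but lost it without any 1 of the other 9, with adjusted p up to 0.168. The TGF-beta ligands did not pass the test, with differences of 0.88 for Tgfb1, 0.46 for Tgfb2 and 0.86 for Tgfb3 (limma adjusted p = 0.293, 0.457 and 0.117). The count of 5 was 3 without MI P1 library 1, sham P56 library 5, MI P56 library 1 or MI P56 library 3.

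At P1 limma called 0 of the 27 after MI (2 had an unadjusted p under 0.05), and edgeR and DESeq2 called 0. The difference between the responses was called for 0 by limma (5 had an unadjusted p under 0.05), for 1 by edgeR and for 2 by DESeq2. Between the ages in sham, limma called 6 lower at P56 (Yap1, Tead1, Fosl2, Jun, Junb and Il6) and 0 higher, where 7.28% and 5.89% of all genes were called. Il6 differed by -3.17 ± 0.43 (limma adjusted p = 7.2e-05), Junb by -2.49 ± 0.38 (limma adjusted p = 2.3e-04) and Jun by -2.24 ± 0.37 (limma adjusted p = 4.4e-04). Each of these 3 kept its call with 16 libraries and without any 1 library, and the count of 6 was 3 without sham P1 library 3.

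Counting strand is not given in the sources used here. Tnc, Fn1 and Thbs1 each overlap a gene annotated on the other strand in GENCODE M21, and Spp1 overlaps 1 on its own strand, so reads in the shared stretches cannot be told apart.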

How the data were processed

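The members and the lists of other matricellular genes, receptors, upstream genes and cell type markers were chosen with earlier results of these data known. The deposited signal values, which the authors named CPM, are 1 column per library of 15895 genes. The submitters' processing notes name HTSeq, STAR, edgeR, Trimmomatic and the build mm10 (GRCm38), and versions, settings and counting strand are not given in the sources used here. The design had assumed plain CPM, but every value equals whole reads multiplied by a factor of its library (100% of values within 0.01 read), so reads were recovered for depth and for the count tests. Libraries were grouped by the labels. In each group the columns are numbered 1, 2, 3 and 5 where the labels number 1 to 4, so column 5 has its group from the column name, and libraries are named by column number. Libraries were made by amplification and sequenced in 2 pools, per the labels, and which library was in which pool is not given in the sources used here, so the pool and the groups cannot be told apart.

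The 13033 genes that reached a value of 1 in 4 or more of the 13 fitted libraries were tested. Values were transformed as log2(value + 1), which understates the change of low genes, and limma-trend (limma 3.58.1, R 4.3.3) was fitted to the 4 groups, two-sided, with Benjamini-Hochberg adjustment over all genes and a threshold of 0.05. Errors are SE of the fit or SD over libraries. Alternatives were all 16 libraries, the recovered reads tested with edgeR 4.0.16 (quasi-likelihood) or DESeq2 1.42.0, other filters, pseudocounts and scalings, only the groups compared, a block for the replicate number, and leaving out each library. Leaving out a sham P1 library leaves 1 in that group, which is assumed to vary like the other groups.

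All members are named, and of each list and comparison up to 3 called genes per direction with the largest change and a mean of at least 5. The receptors Itgav, Itgb1, Itgb3, Itgb5 and Cd47 are given as levels. Thbs2, Thbs3, Thbs4 and the 3 Tgfb genes were named after their values were seen. Levels per kb use exon lengths of GENCODE M21. The test of the members between the ages in sham had been planned, but the sham libraries were in view when the members were listed, so it is given as a description. Summed marker values per group cover 8 lists, and those not described beside a result are given in the closing section. Fits were tested on simulated data. Protein features were not computed. Analyses used Python 3.11.15. A gene among the nearest profiles is not reported here.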

Additional observations from a re-analysis of the deposited data

Results flagged for a closer look

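With all 16 libraries, the 8 members in 4 groups give 32 sets of 4 values, and in 3 of them 1 library met the rule for a value apart from the others, where chance gives about 1 in 20. For Cthrc1 that is 0.0170 in sham P56 library 5, which is a single read, and any read meets the rule where the other libraries are at 0. Nov was at 13.5 in MI P1 library 1, with the nearest library at 9.69, and at 7.68 in sham P56 library 2, with the nearest at 11.8. The adult and neonatal responses to MI differed by the interaction test for the list genes Fstl1 (2.19 on the log2 scale) and Cd44 (2.81), and neither was called with all 16 libraries (adjusted p = 0.509 for both). Their neonatal estimates were smaller than their SE, -0.24 ± 0.34 for Fstl1 and -0.11 ± 0.46 for Cd44, and were 0.019 and 0.45 with 16 libraries.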

How the results depend on the processing

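The deviations of 15 same-numbered pairs of libraries correlated at -0.32 to 0.14, with 1 above 0.1. Those of 47 other pairs correlated at -0.15 to 0.32, and 3 of 13 libraries correlated best with their own number. The 2 fitted sham P1 libraries deviate from their mean by equal and opposite amounts, so their correlations mirror each other. These values cannot decide whether the replicate numbers pair the libraries. With the number as a block 6 members were still called between the ages in sham, a count given as a description. Blocking gave 0 called for the difference between the responses in other matricellular genes and in receptors, 5 receptors between the ages in sham and 3 upstream genes after adult MI. With all 16 libraries, adult MI called 0 other matricellular genes, 0 receptors and 1 upstream gene, the difference between the responses 0 of the first and 0 of the second list, and age in sham 1, 0 and 3. Fitting only the groups compared gave 2 receptors and 2 upstream genes after adult MI and 3 and 3 between the ages in sham. For the difference between the responses, other matricellular genes called were 2 with DESeq2 and 0 with a pseudocount of 4. Receptors were 0 with edgeR, with no filter and with pseudocounts of 0.25 and 4, and 2 with DESeq2. Upstream genes were 1 with edgeR, 2 with DESeq2 and 1 with a pseudocount of 0.25. A pseudocount of 4 gave 3 upstream genes after adult MI. The cause was not tested.

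With 1 library left out, members called between the ages in sham ranged from 5 to 7. Other matricellular genes ranged from 3 to 5 after adult MI, 0 to 3 for the difference between the responses and 1 to 6 for age in sham. Receptors ranged from 2 to 6, 0 to 2 and 2 to 8, and upstream genes from 3 to 5, 0 to 1 and 3 to 7. After MI at P1 all 3 lists stayed at 0 to 0. Members that changed sign had differences smaller than their SE in the fit of 13 libraries. Cthrc1 for MI at P1 ranged from -0.33 (without sham P1 library 3) to 0.87. Thbs1 for MI at P1 ranged from -0.23 to 0.016 (without MI P1 library 5), with 0.014 without MI P1 library 3. Sparc for age after MI ranged from -0.035 (without MI P1 library 5) to 0.56, with -0.013 without MI P56 library 3. Depth limits low values most in sham P1 library 2 and MI P56 library 5, where 3 reads are worth 12.1 and 12.9.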

Other observations

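Of the other cell types listed, cardiomyocyte markers summed to between 1290 and 2329 in sham P56 and between 324 and 573 in MI P56. At P1 they summed to between 150 and 231 in sham and between 102 and 345 in MI. Limma called 10 of 10 lower after adult MI, where 1.07% of all genes were, and the fit of 16 libraries called 1. After MI at P1 limma called 0. Between the ages in sham 10 of 10 were called higher at P56, where 5.89% of all genes were, and 8 were called with 16 libraries. Pericyte and smooth muscle markers, of which 9 were in the table, summed to between 463 and 1160 in sham P56 and between 215 and 340 in MI P56, and to between 105 and 218 and between 114 and 295 at P1. Of these 9, limma called Acta2 higher after adult MI and Rgs5 and Abcc9 lower, where 2.36% and 1.07% of all genes were called. The fit of 16 libraries called 0 of them. Mesothelial markers summed to between 20.0 and 115 in sham P56 and between 14.2 and 37.7 in MI P56, and to between 25.5 and 43.1 and between 53.1 and 94.8 at P1. Lymphatic endothelial markers summed to between 1886 and 3229 in sham P56 and between 1039 and 2474 in MI P56. At P1 they summed to between 2123 and 3082 in sham and between 1695 and 2679 in MI. Limma called none of the 7 tested after MI at either age. After adult MI 0 of the 7 estimates were above 0, with a median of -0.46 where that of all genes was 0.01. Of these 7, 3 had an unadjusted limma p under 0.05. After MI at P1 2 of the 7 estimates were above 0, with a median of -0.19. The cardiomyocyte sums were highest in sham P56, the group with the lowest mean of every member but Nov, and the part of these cells in the members' values was not tested.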
